A study of Mus musculus with 4 samples.

Results

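Mitosis and spindle genes encode the proteins that take a cell into division, build the spindle and part the chromosomes, and 47 of them were followed here in *Ebf1*-/- haematopoietic progenitor cells (HPCs) infected with a *Mir195* virus. The 47 genes were chosen by name and function, among 31896 gene symbols on the array. All of their 64 probes were taken from the scanner files and from the deposited table, and each gene was represented by its brightest probe. Of these, 61 probes of 46 genes passed the filter on dim probes (well above background on the 2 arrays of EMPTY, of *Mir195* or of both) and were tested.

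RNA was hybridised to 4 one-colour Agilent mouse arrays, of which 2 hold cells with the EMPTY virus and 2 hold cells with the *Mir195* virus. Both groups were lineage-depleted (Lin-) cells of fetal livers from *Ebf1*+/- matings, and all 4 samples are labelled *Ebf1*-/-. Both received SCF, IL-7 and Flt-ligand, each at 10 ng/mL, and per the methods such cells grow on OP9 stroma cells for a week. The EMPTY virus is the MDH1-PGK-GFP retrovirus, and the *Mir195* virus is the same vector with the *Mir195* segment. The sources used here name no sort for infected cells before hybridisation and do not say whether the replicates were separate cultures, and no array of wild-type cells was analysed here. The tests therefore measure the spread between these samples, which may be technical. In RNA from mixed cells, fewer cells of a type and less RNA per cell cannot be told apart.

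Entry into mitosis is driven by CDK1 with its cyclins A and B. Aurora and Polo-like kinases then mature the centrosomes and the spindle, the kinetochore binds microtubules to each centromere, and the spindle checkpoint holds back the anaphase promoting complex until all chromosomes are attached. Transcripts of these genes accumulate late in the cell cycle, so that their level in a population is often read as a measure of how many cells divide, and the expansion of early B cells under IL-7 is such a setting.

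The miRNA delivered by the virus is shown first with members of its family, because the seed in capitals (bases 2 to 8 of the mature sequence) is what they share and what pairs with target mRNAs. Sequences and coordinates are those of RefSeq on the mouse build GRCm38.p6 and do not describe the segment in the virus. Per the methods, that segment was amplified from genomic DNA of a cell line. The mature sequence given there has the same letters as miR-195a-5p below. The mature miR-195a-5p lies at chr11:70235062-70235082 on the plus strand, and miR-497a-5p lies close by on the same strand, at chr11:70234730-70234751.

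miR-195a-5p: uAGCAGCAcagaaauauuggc
miR-497a-5p: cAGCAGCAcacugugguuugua
miR-15a-5p: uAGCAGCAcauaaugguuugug
miR-15b-5p: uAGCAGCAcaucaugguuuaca
miR-16-5p: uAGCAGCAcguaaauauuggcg

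None of the 47 genes was in the list of mouse targets predicted for this miRNA that accompanies the study (0 of 47 by symbol or synonym). The array has no probe for the miRNA, so that its level in these samples was not measured here.

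What the mitosis genes share in their own sequence is in their promoters. A first element is the cell cycle genes homology region (CHR, searched as TTTGAA or TTCGAA on both strands). Through it the DREAM complex restrains genes until late in the cell cycle. The CCAAT box (searched as CCAAT on both strands) is bound by NF-Y. RefSeq windows of 250 bases before to 50 bases after the start were matched for 38 of the 47 genes, with 41 promoters, as *Bub3*, *Ect2* and *Prc1* have more than 1. CHR letters were in 29 of the 38 genes and in 32 of 41 promoters (78.0%), against 19.2% of all 32851 promoters. CCAAT letters were likewise in 29 of the 38 genes and in 78.0% of the promoters, against 37.4% of all. Both stood in 70.7% of the member promoters and in 7.52% of all, and the letters of the searches can share at most an end letter. Among promoters of other mitosis genes 43.9% held CHR letters, and among those of DNA replication genes 22.2%. CCAAT letters were in 59.2% and 55.6% of the promoters of these lists, and both in 27.6% and 11.1%. A match of letters is a description of the window and not a measured site, and *Ccna2*, *Cdc25c*, *Aurkb*, *Incenp*, *Spc24*, *Kif20a*, *Tpx2*, *Foxm1* and *Smc4* were not matched.

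The stretches from 150 bases before to 15 bases after the start, on the gene's strand, are shown for 6 genes whose values are given below or which bring the cell from entry to exit of mitosis. Capitals mark CHR and CCAAT letters, the latter as ATTGG where they are on the other strand. *Cdk1* is at chr10:69352898-69353062, *Ccnb2* at chr9:70421540-70421704, *Cdc20* at chr4:118437329-118437493, *Cenpf* at chr1:189688072-189688236, *Kif23* at chr9:61946785-61946949 and *Ccnb1* at chr13:100786472-100786636, all on the minus strand.

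Cdk1: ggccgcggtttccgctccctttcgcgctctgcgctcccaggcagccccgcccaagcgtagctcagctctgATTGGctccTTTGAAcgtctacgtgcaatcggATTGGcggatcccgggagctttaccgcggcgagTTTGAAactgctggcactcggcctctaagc
Ccnb2: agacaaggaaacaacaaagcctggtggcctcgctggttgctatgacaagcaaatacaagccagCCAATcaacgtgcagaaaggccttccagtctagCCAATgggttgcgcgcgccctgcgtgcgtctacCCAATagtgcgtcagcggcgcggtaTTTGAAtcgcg
Cdc20: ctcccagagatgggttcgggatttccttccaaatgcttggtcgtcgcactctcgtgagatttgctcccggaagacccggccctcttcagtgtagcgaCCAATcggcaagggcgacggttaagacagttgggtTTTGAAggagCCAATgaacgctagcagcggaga
Cenpf: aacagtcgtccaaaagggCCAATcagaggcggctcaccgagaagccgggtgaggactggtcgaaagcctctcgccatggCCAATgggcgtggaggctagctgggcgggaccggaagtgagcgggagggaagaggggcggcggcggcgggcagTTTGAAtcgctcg
Kif23: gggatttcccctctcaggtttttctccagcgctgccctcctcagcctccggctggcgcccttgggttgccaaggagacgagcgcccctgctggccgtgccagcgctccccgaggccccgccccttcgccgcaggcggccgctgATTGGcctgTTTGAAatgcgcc
Ccnb1: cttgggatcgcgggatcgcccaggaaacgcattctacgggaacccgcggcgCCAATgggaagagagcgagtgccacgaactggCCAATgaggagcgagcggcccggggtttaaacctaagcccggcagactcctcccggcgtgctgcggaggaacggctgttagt

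In *Cdk1* and *Ccnb2* several CCAAT boxes stood before a CHR near the start. In *Kif23* and *Cenpf* the CHR began at the third base of the transcript. *Ccnb1* held CCAAT letters alone. Of the 44 CHR matches in member promoters, 21 began between 50 bases before and 21 bases after the start, and 34 of the 63 CCAAT matches began between 150 and 40 bases before it. A match in overlapping windows of the same gene counts in each, and TTCGAA, which reads the same on both strands, counts once.

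**Figure D1:**
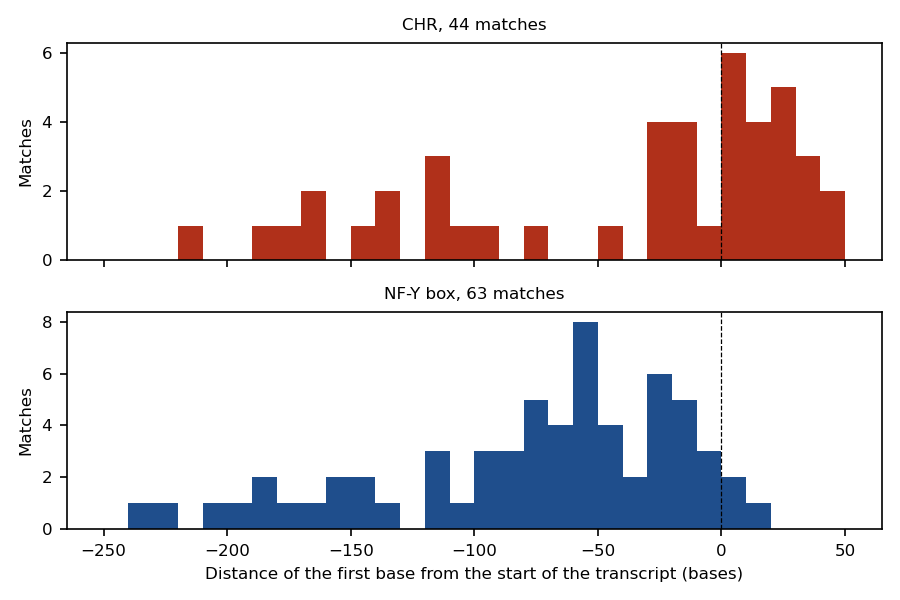
Positions of CHR and CCAAT (NF-Y box) matches in the 41 promoters of 38 mitosis and spindle genes. The horizontal axis is the distance of the first base of a match from the start of the transcript in bases, the vertical axis is the number of matches per 10 bases, and the dashed line is the start. CHR matches (44 in all) gather around the start and the 63 CCAAT matches mostly before it.

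The comparison of the viruses asked whether the mitosis programme was at another level in cells with *Mir195*. Signals are given as log2 of the processed intensity minus the 75th percentile of the array, so that 0 is a probe at that percentile, and differences are the mean of the *Mir195* arrays minus the mean of the EMPTY arrays. Over the 23732 probes tested, limma called 0 at an adjusted p under 0.05 (0%), and 1980 probes (8.34%) had an unadjusted p under 0.05. Among the 46 mitosis genes tested, 0 were called and 0 had an unadjusted p under 0.05. The lowest adjusted p was 0.664, for *Cenpf*. With normexp background correction, with the methods' t-test and without *Mir195* replicate 1, a single gene of the 46 had an unadjusted p under 0.05, and none was called. For a single gene with 2 arrays per virus, the smallest p of an exact permutation test (two-sided) is 0.333.

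The differences were small. They ran from -0.22 for *Nuf2* to 0.25 for *Cenpf* with a median of -0.03, where the median of all probes was 0.01. All 46 lay within 0.3 of zero, as did 79.7% of all probes. Of the tested probes above the 75th percentile, where 39 of the 46 genes lie, 94.2% did so. The 95% intervals of limma span zero for all 46 genes and reach from a fold of 0.584 to a fold of 1.47, and for 42 genes the interval lies within 1.5-fold in either direction. A change within these intervals cannot be told from none at this number of arrays. The mean was higher with *Mir195* for 17 genes and lower for 29, or 37.0% higher, where 53% of all probes were higher. Without *Mir195* replicate 2, 29 of the 46 were higher and the median was 0.03, so that this array decides the side. Without EMPTY replicate 2 the median was 0.00, with 23 genes higher. Median scaling left 2 of 46 genes higher and shifted the medians of the 46 genes and of all probes to -0.13 and -0.08.

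For most genes the arrays of the viruses overlapped. In 4 of 46 genes the *Mir195* arrays were both above the higher EMPTY array, *Ccnb1*, *Plk4*, *Cenpf* and *Kif23*, where 23.4% of all probes did so. They were both below the lower EMPTY array in 4 genes, *Ccnb2*, *Pttg1*, *Cenpa* and *Nuf2*, where 14.4% of all probes did so. In the other 38 genes the groups overlapped. Of the 9781 tested probes above the 75th percentile, both *Mir195* arrays were higher in 1535 and lower in 1543. Of the 13951 below it, they were higher in 4007 and lower in 1875.

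**Figure D2:**
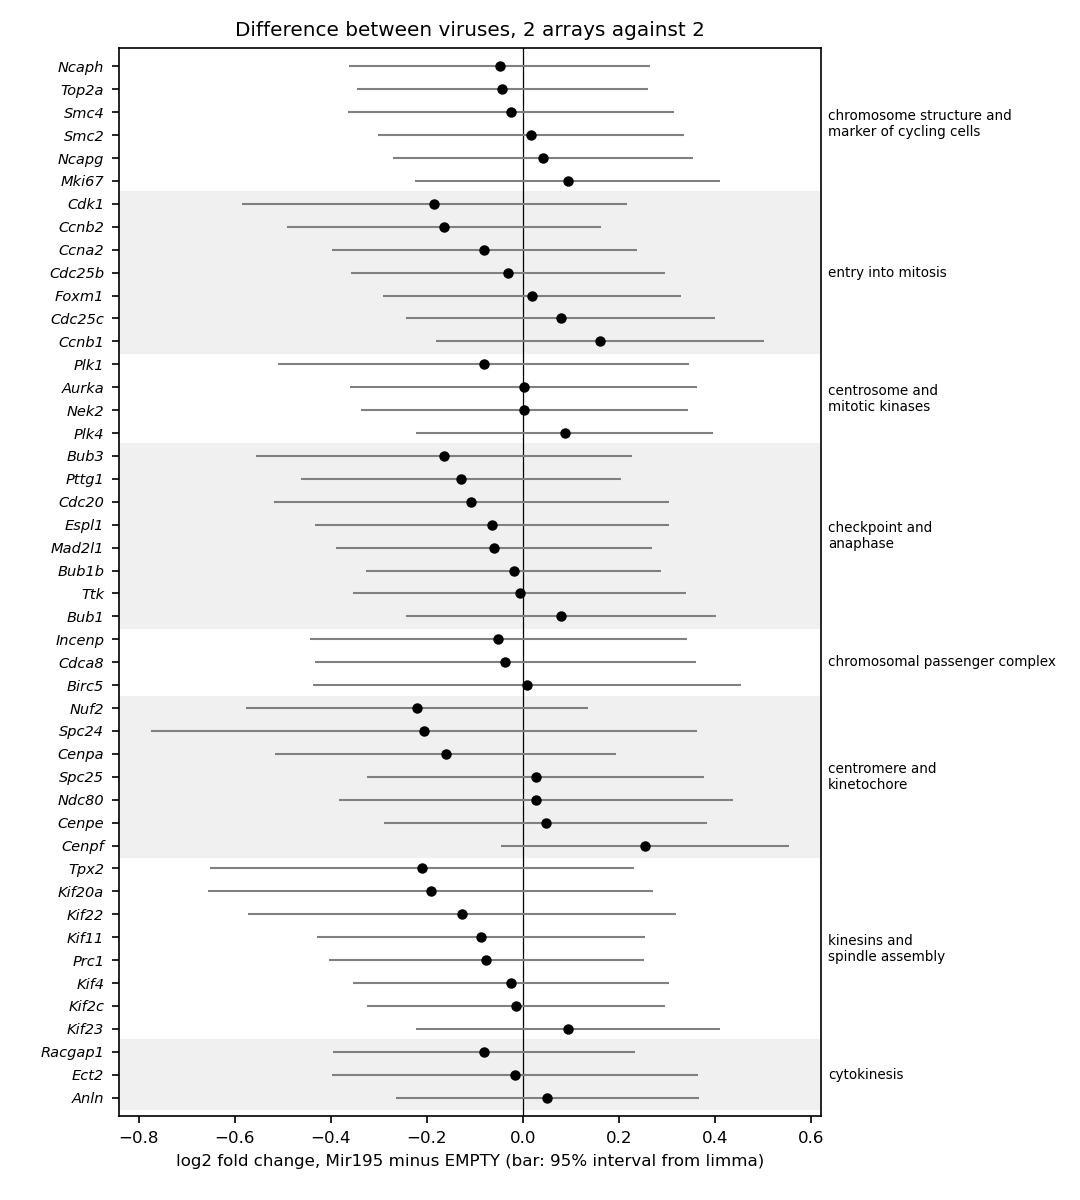
Difference between the viruses for the 46 tested mitosis and spindle genes, grouped by role and ordered by size within each role. The horizontal axis is the log2 fold change, *Mir195* minus EMPTY, and the bar is the 95% interval from limma (2 arrays per virus). Points lie between -0.22 (*Nuf2*) and 0.25 (*Cenpf*), and every bar crosses zero.

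Of the genes that shape chromosomes and mark cycling cells, 3 had a higher and 3 a lower mean with *Mir195*, and the median difference was below 0.01 in size. *Mki67*, the gene of the proliferation marker Ki-67, had log2 signals of 4.71 and 4.82 on the EMPTY arrays and of 4.90 and 4.82 on the *Mir195* arrays. EMPTY replicate 1 was the lowest and the other arrays lay close together, with a difference of 0.09 (standard error 0.12). Its second probe gave 0.12, with log2 signals of 4.40 and 4.41 with EMPTY and 4.54 and 4.51 with *Mir195*. On that probe the EMPTY arrays were nearly level and both *Mir195* arrays were higher (limma adjusted p = 0.875). *Top2a*, the topoisomerase that untangles chromosomes, and the condensin subunits *Smc2*, *Smc4*, *Ncapg* and *Ncaph* had differences between -0.05 and 0.04.

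Of the 7 genes for entry into mitosis, 3 had a higher and 4 a lower mean with *Mir195*, with a median of -0.03. *Ccnb1*, a partner of CDK1, had log2 signals of 2.84 and 3.04 with EMPTY and 3.12 and 3.09 with *Mir195*. Both *Mir195* arrays were higher, with EMPTY replicate 1 standing lowest, and the difference was 0.16 (standard error 0.13, limma adjusted p = 0.848). Leaving out EMPTY replicate 1 made it 0.06, and leaving out replicate 2 made it 0.26. Its other probes gave 0.03 and 0.10.

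*Ccnb2*, the other cyclin B, had log2 signals of 4.07 and 4.14 with EMPTY and 4.01 and 3.86 with *Mir195*. Here both *Mir195* arrays were lower, replicate 2 more than replicate 1, and the difference was -0.16 (standard error 0.12, limma adjusted p = 0.836). It was -0.09 without *Mir195* replicate 2 and -0.26 in the deposited log2 values. *Cdk1*, the kinase itself, had log2 signals of 1.71 and 1.85 with EMPTY and 1.74 and 1.45 with *Mir195*. Its difference of -0.18 came from *Mir195* replicate 2, as *Mir195* replicate 1 lay between the EMPTY arrays, and was -0.04 without replicate 2. The dimmer *Cdk1* probes gave 0.20 and -0.07, so that the gene has no direction common to its probes. *Ccna2* (cyclin A2), *Cdc25b* and *Cdc25c* (phosphatases that activate CDK1) and *Foxm1* (a transcription factor of mitotic genes) had differences between -0.08 and 0.08. A second, dimmer *Foxm1* probe gave 0.15, with both *Mir195* arrays above both EMPTY arrays (limma adjusted p = 0.854).

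For the centrosome and mitotic kinases the median difference was below 0.01, with 3 genes higher and 1 lower. *Plk1*, the Polo-like kinase of spindle assembly, had log2 signals of 3.75 and 3.96 with EMPTY and 3.92 and 3.63 with *Mir195*. *Mir195* replicate 2 was the lowest and EMPTY replicate 2 the highest, and the difference of -0.08 (standard error 0.16) was smaller than either gap between replicates. *Plk4*, which starts centriole duplication, is read by a dim probe with log2 signals of -3.41 and -3.51 with EMPTY and -3.39 and -3.35 with *Mir195*. The arrays separate, EMPTY below *Mir195*, by a difference of 0.09 (standard error 0.12), but the direction turns under quantile normalization and under median scaling. *Aurka*, the Aurora kinase of the centrosome, and *Nek2*, which lets centrosomes part, both had a difference of 0.00.

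Of the 8 checkpoint and anaphase genes, 7 were lower with *Mir195* and 1 was higher, with a median of -0.06. *Bub3*, a checkpoint protein of the kinetochore, had log2 signals of 3.91 and 4.00 with EMPTY and 3.94 and 3.65 with *Mir195*. A single array, *Mir195* replicate 2, stood apart from the others, and the difference of -0.16 (standard error 0.15) was -0.02 without it. *Pttg1*, the securin that guards separase, had log2 signals of 1.54 and 1.64 with EMPTY and 1.54 and 1.39 with *Mir195* and a difference of -0.13 (standard error 0.13), with EMPTY replicate 1 and *Mir195* replicate 1 nearly level. Its second probe was well above background on *Mir195* replicate 2 alone and was not tested.

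*Cdc20*, the activator of the anaphase promoting complex, had log2 signals of 3.80 and 3.96 with EMPTY and 3.92 and 3.63 with *Mir195*, the order of arrays seen for *Plk1*, and a difference of -0.11. *Mad2l1*, which inhibits CDC20, had log2 signals of 2.58 and 2.67 with EMPTY and 2.64 and 2.49 with *Mir195*. The groups overlapped, and its 3 probes gave differences of -0.06, 0.04 and 0.00, which differ in sign. *Espl1* (separase), the checkpoint kinases *Bub1* and *Ttk* and the checkpoint protein *Bub1b* lay between -0.06 and 0.08, and *Bub1* was the gene with a higher mean.

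The chromosomal passenger complex corrects wrong attachments of chromosomes. Its kinase *Aurkb* could not be followed, because its only probe reached that level on none of the 4 arrays (log2 signals of -6.93 and -7.09 with EMPTY and -6.77 and -8.36 with *Mir195*, not well above background). The other subunits were bright, and *Birc5* (survivin) had log2 signals of 4.87 and 5.15 with EMPTY and 5.15 and 4.88 with *Mir195*. EMPTY replicate 2 and *Mir195* replicate 1 were level, as were the other arrays, so that the difference was 0.01 (standard error 0.17). The sign of *Birc5* differs between its probes (0.01, -0.04 and -0.14). *Incenp* and *Cdca8* (borealin), which hold the complex together, had *Mir195* replicate 2 lowest and EMPTY replicate 2 highest, with differences of -0.05 and -0.04.

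Among the 7 genes of centromere and kinetochore were both ends of the range. *Cenpf*, a kinetochore protein of late cell cycle, is read by a dim probe with log2 signals of -4.44 and -4.40 with EMPTY and -4.15 and -4.18 with *Mir195*. The pairs stood apart and close within each virus, and the difference was 0.25 (standard error 0.11, 95% interval -0.05 to 0.55). The difference lay between 0.23 and 0.28 with any array left out, but fell to 0.16 with quantile normalization and to 0.16 with median scaling. *Nuf2*, a subunit of the NDC80 complex that grips microtubules, had log2 signals of 0.19 and 0.11 with EMPTY and 0.05 and -0.17 with *Mir195*.

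For *Nuf2* both *Mir195* arrays were lower, with a difference of -0.22 (standard error 0.14, limma adjusted p = 0.799). Leaving out *Mir195* replicate 2 made it -0.11, and leaving out replicate 1 made it -0.33. A second *Nuf2* probe was too dim on every array to be well above background. *Spc24*, of the same complex, had log2 signals of 0.83 and 1.04 with EMPTY and 0.99 and 0.47 with *Mir195*. *Mir195* replicate 2 alone was low, and the difference of -0.21 (standard error 0.22) became 0.06 without it. *Spc25* had log2 signals of 4.09 and 4.28 with EMPTY and 4.27 and 4.15 with *Mir195*, which overlap, and a difference of 0.03. The centromeric histone *Cenpa* differed by -0.16, and the motor *Cenpe* and the fourth subunit *Ndc80* by 0.05 and 0.03. Differences of both signs were thus found among the subunits of the NDC80 complex.

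Of the 8 kinesins and spindle assembly genes, 7 were lower and 1 was higher, with a median of -0.08. *Tpx2*, which activates Aurora A on the spindle, had log2 signals of 1.81 and 1.89 with EMPTY and 1.83 and 1.45 with *Mir195*. *Kif20a*, a motor of the central spindle, had log2 signals of 1.90 and 2.01 with EMPTY and 1.96 and 1.56 with *Mir195*. In both genes *Mir195* replicate 1 lay between the EMPTY arrays and *Mir195* replicate 2 was low. The differences of -0.21 and -0.19 (standard errors 0.17 and 0.18) were -0.02 and 0.01 without that array.

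*Kif22*, a motor that binds chromosome arms, had log2 signals of 3.11 and 3.37 with EMPTY and 3.26 and 2.97 with *Mir195*, again with the lowest value on *Mir195* replicate 2, and a difference of -0.13. *Kif23*, the kinesin of the midbody, had log2 signals of 1.02 and 1.05 with EMPTY and 1.06 and 1.20 with *Mir195*. It was the one gene of this group with a higher mean, by 0.09 (standard error 0.12), and *Mir195* replicate 2 was its highest array. With median scaling this value was below zero by less than 0.01. *Kif2c*, which takes microtubules apart at the kinetochore, had log2 signals of -0.74 and -0.78 with EMPTY and -0.73 and -0.83 with *Mir195*, a difference of -0.01, and a second probe with 0.00 of the opposite sign. *Kif4* (a chromokinesin), *Kif11* (the motor that pushes spindle poles apart) and *Prc1* (which bundles the central spindle) lay between -0.09 and -0.03.

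Of the cytokinesis genes, *Racgap1*, a subunit of centralspindlin, had log2 signals of 2.16 and 2.25 with EMPTY and 2.16 and 2.08 with *Mir195*. The groups met at EMPTY replicate 1 and *Mir195* replicate 1, and both probes gave a difference of -0.08. *Anln* (anillin, of the contractile ring) and *Ect2* (the activator of RhoA at the midzone) had differences of 0.05 and -0.02.

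The spread between replicates was set beside the difference between viruses. The median size of the difference was 0.104 between the EMPTY arrays and 0.146 between the *Mir195* arrays, against 0.0692 between the means of the viruses. Over all probes these medians were 0.147, 0.194 and 0.125, and over all tested probes above the 75th percentile 0.126, 0.166 and 0.0877. A gap between single arrays is larger than a gap between means of 2 arrays when nothing differs. In 44 of 46 genes at least 1 gap within a virus was larger than the difference between the viruses, against a lower share of 75.9% over all probes. That share was not counted over the probes above the 75th percentile.

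The gaps had a direction. EMPTY replicate 2 lay above EMPTY replicate 1 in 37 of 46 genes (62.3% of all probes), with a median of 0.09. *Mir195* replicate 2 lay below *Mir195* replicate 1 in 39 of 46 (52.3% of all probes), with a median of -0.14. Both held for 35 of 46 genes and for 39.4% of all probes. EMPTY replicate 2 was the highest array for 25 genes and *Mir195* replicate 2 the lowest for 29. Of all 23732 tested probes these numbers were 6197 and 8080, and of the 9781 above the 75th percentile 3631 and 4826. EMPTY replicate 2 and *Mir195* replicate 1 differed by less than 0.15 in 45 of 46 genes, a count not made over all probes. The genes thus moved largely together across the arrays, in an order that crosses the viruses. The points share 4 libraries and the scaling of each array. Of the 46 genes, 39 lie above the 75th percentile. Over all tested probes above it, the same gaps had medians of 0.09 for EMPTY and -0.11 for *Mir195*. The order is therefore not particular to these genes. All arrays are on 1 slide, with EMPTY in the first positions and *Mir195* in the last, so that position and virus cannot be told apart.

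**Figure D3:**
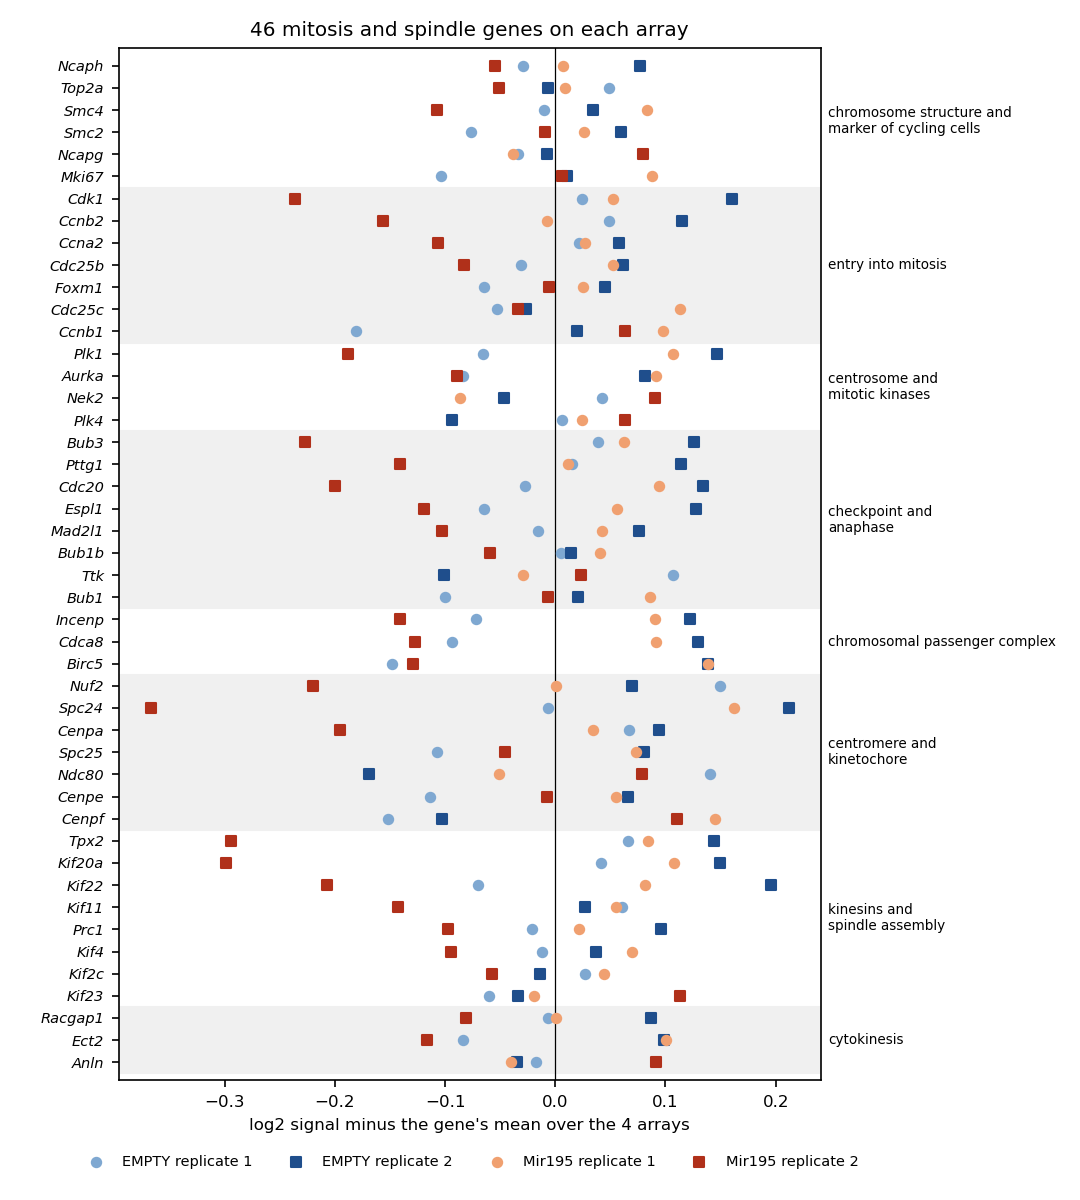
Log2 signal of the 46 tested mitosis and spindle genes on each array, minus the mean of the gene over the 4 arrays (horizontal axis, log2 units), grouped by role. Blue symbols are EMPTY and orange to red symbols *Mir195*, circles replicate 1 and squares replicate 2. *Mir195* replicate 2 is the lowest array for 29 genes and EMPTY replicate 2 the highest for 25. Of all 23732 tested probes these numbers are 8080 and 6197.

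**Figure D4:**
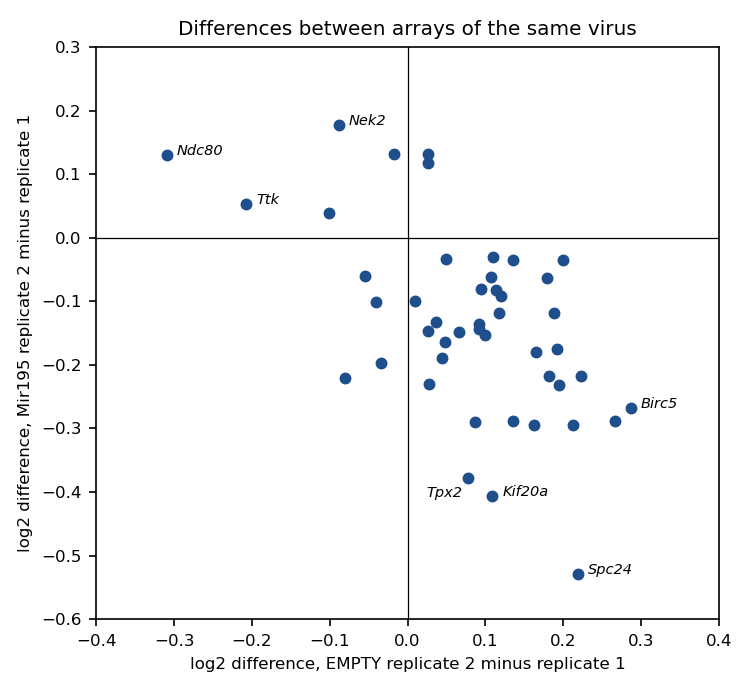
Difference between the arrays of the same virus for the 46 tested genes. The horizontal axis is EMPTY replicate 2 minus replicate 1 and the vertical axis *Mir195* replicate 2 minus replicate 1, both in log2 units. Of the 46 points, 35 lie in the lower right quadrant, with *Spc24* lowest.

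Markers of other cells also moved on *Mir195* replicate 2. Of 12 genes of stroma cells such as OP9, 8 were well above background on all arrays, and 7 of these 8 were highest on *Mir195* replicate 2, with a median gap to *Mir195* replicate 1 of 0.91. The exception was *Thy1*, which lymphoid cells also express. Of all tested probes, 8131 of 23732 were highest on that array. *Dcn*, *Lum*, *Pdgfra* and *Postn* were well above background on no array. The summed signal of the 12, in units of the 75th percentile, was 22.8 and 23.1 with EMPTY and 18.9 and 26.2 with *Mir195*. For the haematopoietic and early B lineage genes, of which 10 of 12 were well above background on all arrays, the sum was 114 and 115 with EMPTY and 108 and 110 with *Mir195*. Of the 11 of these genes that were tested, 7 were highest on *Mir195* replicate 2, with a median gap to replicate 1 of 0.20, and 8 had a higher mean with *Mir195*. The sums of the myeloid genes (9 of 10 well above background on all arrays) ran from 17.5 to 18.5 with EMPTY and from 17.9 to 18.2 with *Mir195*. Those of the T and NK genes (10 of 10) ran from 56.7 to 60.3 and from 54.0 to 54.6. Of these genes 0 had a higher and 10 a lower mean with *Mir195*, with a median difference of -0.29, where 53% of all probes were higher. In 7 of the 10 the arrays of the viruses overlapped. Of the erythroid genes 5 of 10 were well above background on all arrays and others, *Ahsp*, *Alas2* and *Klf1* among them, on none, with sums of 9.39 to 10.3 and of 8.53 to 10.1. Their part in the values of the mitosis genes was not tested.

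Brightness moved with the sign as well, in a split chosen after the values were seen. Of the 45 member probes above the 75th percentile 14 were higher with *Mir195* (31.1%, and 42.6% of all such probes), and of the 16 below it 11 were higher (68.8%, and 60.3% of all such probes). The part of brightness in the differences was not tested.

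Other genes of the same processes gave medians near zero. Of 108 further genes of kinetochore, spindle, anaphase promoting complex, cohesin, condensin and centrioles, 57 were higher and 51 lower with a median of 0.01. None was called by limma, and 2 had an unadjusted p under 0.05. These were *Anapc10*, a subunit of the anaphase promoting complex, with a difference of 0.46, and *Pds5a*, a cohesin regulator, with 0.42. On the other side stood *Cep152*, a centriole protein, at -3.43, which rests on *Mir195* replicate 2, where the probe was not well above background, with log2 signals of -0.80 and -0.80 with EMPTY and -0.67 and -7.80 with *Mir195*. *Kifc5b*, whose probe may share signal with its near copy *Kifc1*, followed at -0.50 with overlapping arrays.

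Of 46 DNA replication genes, 27 were higher and 19 lower, with a median of 0.02, none called and 0 at an unadjusted p under 0.05 by limma. The differences ran from -0.24 to 0.28. *Orc2*, of the origin recognition complex, had a difference of 0.25, which was not the highest. *Rpa3*, of the single-strand binding protein RPA, and *Gins2*, of the replicative helicase, had the most negative values (-0.24 and -0.17). Within the viruses the medians of the replication genes were 0.19 for EMPTY replicate 2 minus replicate 1 and -0.18 for *Mir195* replicate 2 minus replicate 1. EMPTY replicate 1 was the lowest array for 21 of them and *Mir195* replicate 2 for 19. Of all 23732 tested probes these numbers were 7736 and 8080, and of the 9781 above the 75th percentile 2902 and 4826.

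**Figure D5:**
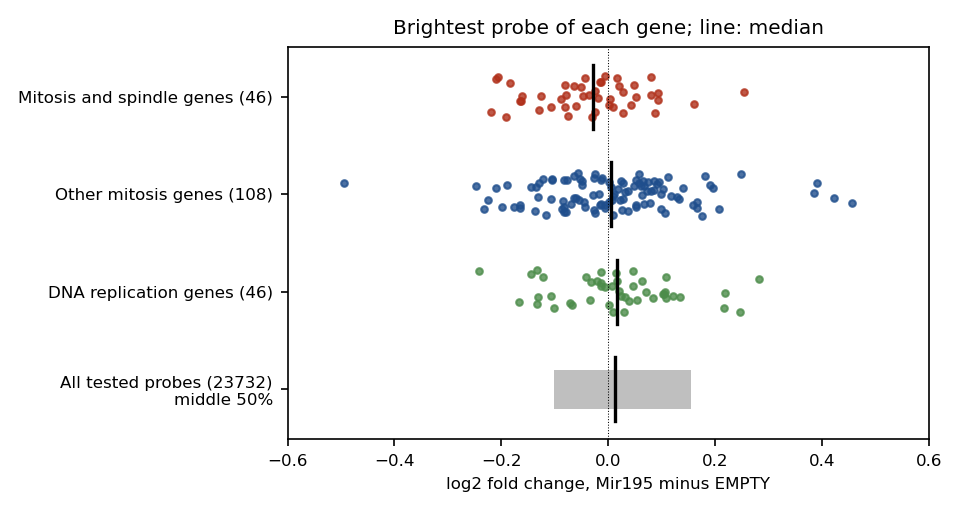
Log2 fold change, *Mir195* minus EMPTY (horizontal axis), of the brightest probe of each tested gene in 3 lists, with the median as a black line. The grey bar is the middle 50% of all 23732 tested probes. *Cep152*, at -3.43 among the other mitosis genes, is outside the axis. The medians are -0.03, 0.01, 0.02 and 0.01 from top to bottom.

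The regulators upstream of these programmes include the cell cycle genes that the *Mir15* family is known to target. Their 9 genes had a median of 0.01, with 6 higher, 3 lower and none called, and 0 with an unadjusted p under 0.05 by limma. *Ccnd2* (cyclin D2) and *Cdk6*, which drive G1, were at -0.27 and -0.10, *Ccnd1* and *Ccne1* (cyclins D1 and E1) both at 0.01, *Cdc25a* at -0.03, and the kinases *Wee1* and *Chek1*, which hold back CDK1, at 0.16 and 0.30.

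Of the 7 CDK inhibitors 6 were lower and 1 higher, with a median of -0.17 and none called, and 1 had an unadjusted p under 0.05. That gene was *Cdkn2c* (p18), an inhibitor of CDK4 and CDK6, with log2 signals of -1.14 and -1.23 with EMPTY and -1.58 and -1.62 with *Mir195*. The pairs did not overlap, and the difference was -0.42 (standard error 0.12, limma adjusted p = 0.530). *Cdkn2a* had log2 signals of -2.52 and -3.81 with EMPTY and -4.75 and -4.04 with *Mir195*, a difference of -1.23 with a wide spread (standard error 0.49).

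Among the 29 mitosis genes with CHR letters 10 were higher and 19 lower with a median of -0.03, and among the 9 matched genes without them in this window 5 were higher and 4 lower with a median of 0.00. Their ranges, -0.18 to 0.25 and -0.22 to 0.16, overlap almost throughout.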

How the data were processed

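Per the labels, the samples were assigned to EMPTY or *Mir195* by title. The authors deposited scanner intensity per spot and a table of log2 values per probe. In the files, the processed intensity is the mean signal minus a fitted spatial surface, divided by a multiplicative trend, with a small surrogate value for 19.4 to 22.1% of spots. The submitters' notes name Feature Extraction 11.5.1.1, and the file header 9.1.3.1.

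Outlier spots (21 to 65 per array) and control spots were left out, no spot was saturated, log2 values of replicate spots were averaged per probe, and each array was scaled by subtraction of its 75th percentile over 39429 probes (a signal of 902 to 1127). The values correlated with the deposited log2 values at r = 0.998, and the median of each deposited column was -4.29 to -4.45. On each array, 23658 to 24672 of the probes passed as well above background, and the number of arrays limits the precision. Tests were two-sided, with lmFit and eBayes of limma 3.58.1 (R 4.3.3, data.table version 1.17.8), adjusted by Benjamini-Hochberg over 23732 probes of 19042 genes. Probes with an outlier spot (70) were not tested. Symbols came from the accession (26055 probes, GRCm38.p6) or the array. The procedure was tested on simulated data. Promoters and lists were counted in Python 3.11.15 (pandas 2.3.3, numpy 2.4.6, matplotlib 3.10.9).

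All genes of the list are named, and values per array are given for the 5 highest and 5 lowest differences, the brightest gene of each role and genes whose probes differ in sign. *Pttg1* and *Cdc20* were added after their values were seen. The alternatives were normexp, quantile normalization, median scaling, the deposited log2 values, a looser and a stricter filter, eBayes with trend and robust estimation, the replicate block, the mean of a gene's probes, each array left out and the methods' t-test. Some genes of the lists are not reported here. The genes and lists were chosen with earlier results of these data known.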

Additional observations from a re-analysis of the deposited data

How the results depend on the processing

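None of the 46 mitosis genes was called under any alternative tried. Over all probes, 3 were called with median scaling and 5 with the replicate block, and leaving out 1 array gave 0 to 904 calls (904 without *Mir195* replicate 1, 3 without *Mir195* replicate 2). The methods' t-test on ratios of same-numbered replicates gave 1134 probes at a p of 0.05, with 1 mitosis gene among them, and 0 after adjustment. The median of the 46 differences was -0.13 with median scaling, where that of all probes was -0.08 and 2 of 46 genes were higher, and between -0.11 and 0.029 with 1 array left out (-0.11 without *Mir195* replicate 1). The replicate numbers are not stated to mark a shared source, and deviations of same-numbered arrays correlated at -0.10 across probes. With the numbers crossed, an alternative chosen after seeing the data, 0 probes and 0 mitosis genes were called. The filters, trend and robust estimation, the block and the crossed numbers leave single differences as they are by construction. Under the other 8 alternatives, 130 of 152 values (19 genes) kept their sign, and 8 genes kept it throughout. With median scaling *Mki67* became -0.0042, *Plk4* -0.010, *Birc5* -0.088, *Spc25* -0.071 and *Kif23* -0.0039. With quantile normalization *Plk4* was -0.0063. With normexp *Birc5* was -0.0082 and *Kif2c* 0.033, and in the deposited log2 values *Birc5* was -0.054. With 1 array left out, *Plk1* ran from -0.23 to 0.067, *Mad2l1* from -0.13 to 0.012, *Birc5* from -0.13 to 0.15, *Spc24* from -0.47 to 0.059, *Spc25* from -0.067 to 0.12, *Kif2c* from -0.064 to 0.037, *Kif20a* from -0.39 to 0.012 and *Kif22* from -0.27 to 0.019. Of genes that kept their sign, *Cdk1* ran from -0.33 to -0.04, *Tpx2* from -0.40 to -0.02 and *Bub3* from -0.31 to -0.02, and *Cenpf* was 0.16 with quantile normalization and with median scaling. The causes were not tested.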
